A study of Mus musculus with 27 samples.

Results

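NIH/3T3 is an established line of mouse embryo fibroblasts. The last 12 h of a 48 h culture course of these cells were examined by comparing the 3 arrays labelled 48 h with the 3 arrays labelled 36 h. The arrays were chosen by their time labels and paired by the experiment number, 1 to 3, in the same labels. They are 6 of the 27 arrays of the series. The other arrays cover 0 h to 30 h and 42 h in steps of 6 h, with 3 arrays at each time. All 27 cultures had received the same treatment: the serum concentration was lowered to 5%, the cells were given a 2 h pulse of 15 µM forskolin in serum-free medium, and they then stayed in serum-free DMEM until harvest. Forskolin activates adenylyl cyclase and so raises cyclic AMP. The 36 h and 48 h groups therefore differ in the time after the pulse and share the cell line, the agent and the medium. Each array holds total RNA of 1 flask. Per the labels' protocols the 3 experiments are biological replicates at passages 4 and 5. Cultures that received no pulse, or that were fed again, were not analysed here, so the time since the pulse, the time in serum-free medium and the time in the same flask cannot be told apart.

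Immediate early genes are transcribed within minutes of a stimulus from factors that the cell already holds, with no need for new protein. Many of them encode transcription factors, such as the FOS, JUN and EGR proteins, and others encode phosphatases and RNA-binding proteins that shut the signal off again. Serum and growth factors switch them on in fibroblasts through serum response factor at CArG boxes, and cyclic AMP does so through CREB at cyclic AMP response elements (CREs). Stress genes answer to several pathways, which can overlap. HSF1 responds to unfolded cytosolic protein, and the unfolded protein response serves the endoplasmic reticulum. ATF4 answers to amino acid shortage among other stresses, NRF2 to oxidants and HIF1 to low oxygen.

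The promoter windows of 3 immediate early genes whose estimates were among the highest of their list differ in the motifs they hold. Each sequence is the 250 bases before the transcription start, 5′ to 3′ on the gene's strand, from RefSeq on GRCm38.p6. Bases further upstream were not searched, so a motif not found here, such as a CArG box, may lie beyond the window. Capitals mark matches to the motifs searched, which were the CRE half-site TGACGT, the full CRE TGACGTCA and the E-box CACGTG, to which CLOCK and BMAL1 bind, all on both strands, and the CArG box. A full CRE holds the half-site on both strands. Fos, on the plus strand at chr12:85473640-85473889, encodes a subunit of AP-1 and has 1 half-site, which begins 66 bases before the start. Dusp1, on the minus strand at chr17:26508473-26508722, encodes a phosphatase of MAP kinases and has a half-site 191 bases, a full CRE 143 bases and an E-box 126 bases before the start. Ier3, on the plus strand at chr17:35821463-35821712, encodes a stress-inducible survival protein and has none of the 4 motifs in this window.
Fos: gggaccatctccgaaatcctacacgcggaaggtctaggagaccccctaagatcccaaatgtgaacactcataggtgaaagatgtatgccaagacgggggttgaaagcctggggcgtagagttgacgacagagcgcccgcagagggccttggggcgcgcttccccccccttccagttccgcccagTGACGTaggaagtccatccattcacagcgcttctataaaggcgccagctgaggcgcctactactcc
Dusp1: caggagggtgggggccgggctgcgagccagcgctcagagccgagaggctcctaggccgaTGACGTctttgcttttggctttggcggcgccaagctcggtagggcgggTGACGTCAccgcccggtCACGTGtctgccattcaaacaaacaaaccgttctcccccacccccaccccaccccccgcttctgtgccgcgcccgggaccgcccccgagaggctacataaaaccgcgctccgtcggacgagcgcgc
Ier3: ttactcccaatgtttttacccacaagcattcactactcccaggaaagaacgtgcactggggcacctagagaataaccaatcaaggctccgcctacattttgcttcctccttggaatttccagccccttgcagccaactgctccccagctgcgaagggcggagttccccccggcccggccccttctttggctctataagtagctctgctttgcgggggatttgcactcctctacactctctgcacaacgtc
Of the 33 immediate early genes measured, 24 had a promoter window in the RefSeq table. The CRE half-site was found in 7 of these 24 genes (29.2%), against 12.1% of the 4571 tested genes with a window and 7.3% of all 27025 genes in the table. The full CRE was found in 3 of the 24 (12.5%) against 2.8% of the tested genes, the E-box in 7 (29.2%) against 10.8%, and the CArG box in 2 (8.3%) against 1.5%. The genes with a half-site were Fos, Dusp1, Atf3, Egr2, Plk2, Btg2 and Plk3, of which Plk3 had an estimate below 0 at 48 h. Myc, Phlda1, Ier2 and Zfp36l2 had no window and were not searched. A match is a run of letters and not a shown binding site. Any link between these shares and the late differences was not tested.

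No gene passed the test between 36 h and 48 h. Over 7453 probe sets, limma called 0 higher and 0 lower at a Benjamini-Hochberg adjusted p below 0.05 (0% of the probe sets in each direction), and the smallest adjusted p was 0.569. At an unadjusted p below 0.05, 255 probe sets were higher (3.42%) and 279 lower (3.74%), 534 in all (7.16%), where 372.7 would be expected by chance alone. The fit treated the experiment as a block. Without that block the unadjusted count was 147 (1.97%, 62 higher and 85 lower) and the adjusted count again 0. The comparison bounded most genes: for 6725 probe sets (90.2%) the 95% interval of the 48 h minus 36 h difference lay between -1 and 1 on the log2 scale, and the median standard error was 0.17. The estimate itself exceeded 1 for 14 probe sets and lay under -1 for 17. All levels below are log2(intensity + 12.1), all differences are 48 h minus 36 h on that scale unless said otherwise, a scale that understates the difference of dim genes, and each error is the standard error from the fit over all 27 arrays. Since no gene passed, what follows gives values, counts and the background over all genes beside them.

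**Figure D1:**
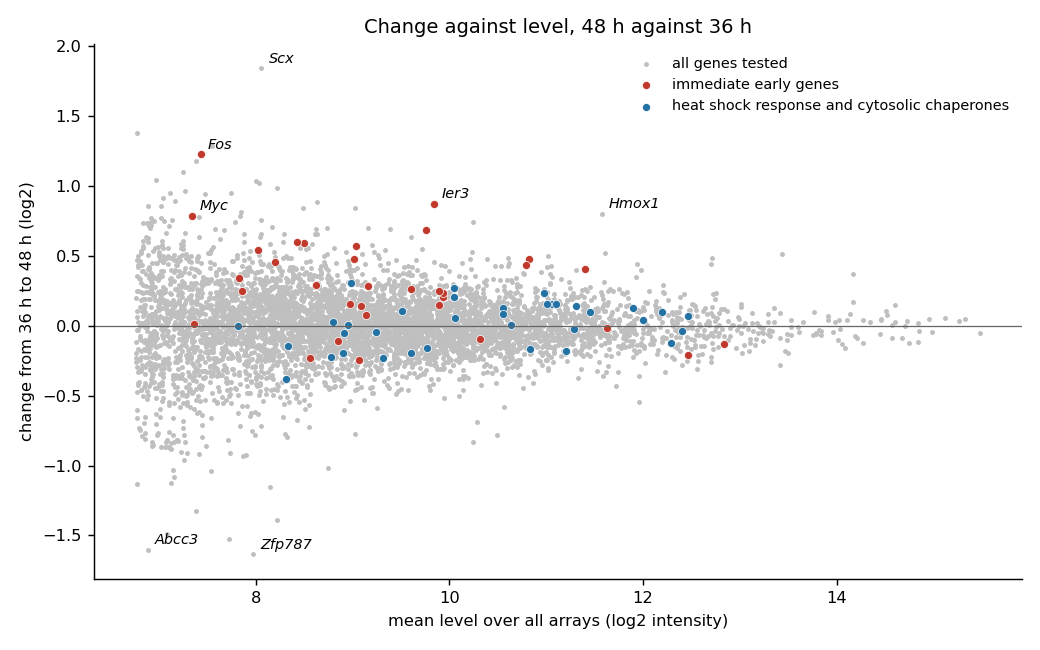
Each point is a gene (5643, by its brightest probe set), with its mean log2 intensity over all 27 arrays on the x axis and its 48 h minus 36 h difference (log2) on the y axis. Immediate early genes (red) reach 1.22 for Fos and lie mostly above 0, heat shock and chaperone genes (blue) lie between -0.38 and 0.30, and the most extreme genes, such as Scx at 1.84 and Zfp787 at -1.64, are dim.

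Immediate early genes were the group that lay highest apart from the core clock genes. Of 48 genes on the list 41 were on the array and 33 passed the filter on low values. Their estimates were higher at 48 h for 26 of 33, against 50.5% of all 5643 genes, and their median difference was 0.26, against 0.00 over all genes. The median was 0.31 in experiment 1, 0.27 in experiment 2 and 0.33 in experiment 3 (SD 0.03, n = 3). None passed the adjusted threshold. At an unadjusted p below 0.05, 7 were higher (21.2%, against 3.56% of all genes), namely Fos, Ier3, Myc, Dusp1, Phlda1, Ier2 and Zfp36l2, and 1 was lower (3.03%, against 3.85%), Plk3. The count of 7 moved with the samples and the model: it was 12 in a fit of the 6 arrays alone and 4 with a variance prior that ignores intensity. It was 2 (Ier2 and Nfkbia) without experiment 3, 9 without experiment 1, 6 without experiment 2 and 1 (Myc) without the block, while the median of the list stayed between 0.24 and 0.35 in all alternatives. The difference had the same sign in all 3 experiments for 19 members that were higher (57.6%, against 16.6% of all genes) and for 2 that were lower (6.06%, against 15.0%).

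Among the transcription factors, Fos was at 7.79, 6.76 and 7.21 at 36 h in experiments 1, 2 and 3 and at 9.68, 7.25 and 8.50 at 48 h. Each 48 h array was above the 36 h array of its own experiment, but experiment 2 at 48 h lay below experiment 1 at 36 h, so the groups overlap. The difference was 1.22 ± 0.48, a 2.34-fold higher level with a 95% interval of 1.17 to 4.67, with an adjusted p of 0.637. Myc, the growth-promoting factor that pairs with MAX, was at 7.13, 7.04 and 6.66 at 36 h and at 7.90, 7.53 and 7.76 at 48 h. Its groups did not overlap. All 48 h arrays were above all 36 h arrays for 2.64% of all genes and for 2 of the 33 immediate early genes (6.06%), Myc and the survival gene Mcl1, which differed by 0.26 ± 0.19. The Myc difference was 0.79 ± 0.30 with an adjusted p of 0.637. Both genes are dim, at means of 7.43 and 7.34 where the filter stood at 6.77. Egr1, a zinc finger factor, was at 9.04, 9.12 and 8.81 at 36 h and at 10.41, 8.80 and 9.19 at 48 h. Its difference of 0.48 ± 0.29 came largely from experiment 1, and experiment 2 had the opposite sign. Atf3, a stress-induced member of the ATF family, differed by 0.54 ± 0.32 and was higher in each experiment, by 0.58, 0.67 and 0.37. Klf4, at 0.47 ± 0.23, was also higher in each experiment. The nuclear receptor Nr4a1, a classic CREB target, differed by 0.46 ± 0.42 and Egr2 by 0.34 ± 0.32, both within about 1 standard error of 0. By their brightest probe sets the AP-1 partners were closer to 0: Jun differed by 0.23 ± 0.16, Fosl1 by 0.25 ± 0.44, Junb by 0.08 ± 0.19 and Jund by -0.13 ± 0.21. A dimmer Junb probe set gave 0.40 ± 0.46, and a dimmer Atf3 probe set gave 0.39 ± 0.48. Fosb ran the other way from Fos, at 8.98, 9.31 and 9.04 at 36 h and 8.95, 8.94 and 8.71 at 48 h, a difference of -0.24 ± 0.13. Its groups did not overlap, the only such member that was lower (3.03%, against 2.91% of all genes).

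Among the feedback and effector genes, Ier3 was at 10.33, 9.38 and 9.72 at 36 h and at 11.35, 9.86 and 10.83 at 48 h. The difference was 0.87 ± 0.35, a 1.83-fold higher level (95% interval 1.10 to 3.05), with an adjusted p of 0.637. Dusp1 was at 10.49, 9.48 and 9.83 at 36 h and at 11.27, 9.76 and 10.82 at 48 h, a difference of 0.69 ± 0.32 with an adjusted p of 0.682. Both genes had the order experiment 1, then 3, then 2 at both times, so that the spread between experiments at either time was wider than the difference between the times, and the groups overlap. Phlda1, a pleckstrin-homology protein that dampens receptor signalling, differed by 0.59 ± 0.28 and Ier2 by 0.57 ± 0.27. Zfp36l2, which binds AU-rich elements and speeds mRNA decay, differed by 0.40 ± 0.16 with changes of 0.31, 0.41 and 0.49, but its other probe sets gave -0.10 ± 0.24 and 0.16 ± 0.13. Dusp6, the ERK phosphatase, differed by 0.60 ± 0.36 and the kinase Sgk1 by 0.43 ± 0.27. Plk3, a polo-like kinase, was at 12.50, 12.88 and 12.72 at 36 h and at 12.13, 12.64 and 12.71 at 48 h, a difference of -0.21 ± 0.10. Of the 7 members that were higher at an unadjusted p below 0.05, 5 had their smallest difference in experiment 2, where all 7 lay between 0.21 and 0.49. Among the remaining members, Gem differed by 0.29, the NF-κB inhibitor Nfkbia by 0.28, Plk2 by 0.25, Klf6 by 0.21, Zfp36 and Btg2 by 0.15 each, Klf10 by 0.14 and Hbegf by 0.01. Zfp36l1 differed by -0.01, Rhob by -0.09, Gadd45b by -0.11 and Dusp2 by -0.23. A list of 21 cyclic AMP and CREB targets, which shares Fos and other members with the immediate early list, had 16 above 0 (76.2%, against 50.5% of all genes), 2 higher at an unadjusted p below 0.05 (9.52%, against 3.56%) and a median of 0.19. That median was less even, at 0.28, 0.07 and 0.42 by experiment (SD 0.18, n = 3).

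**Figure D2:**
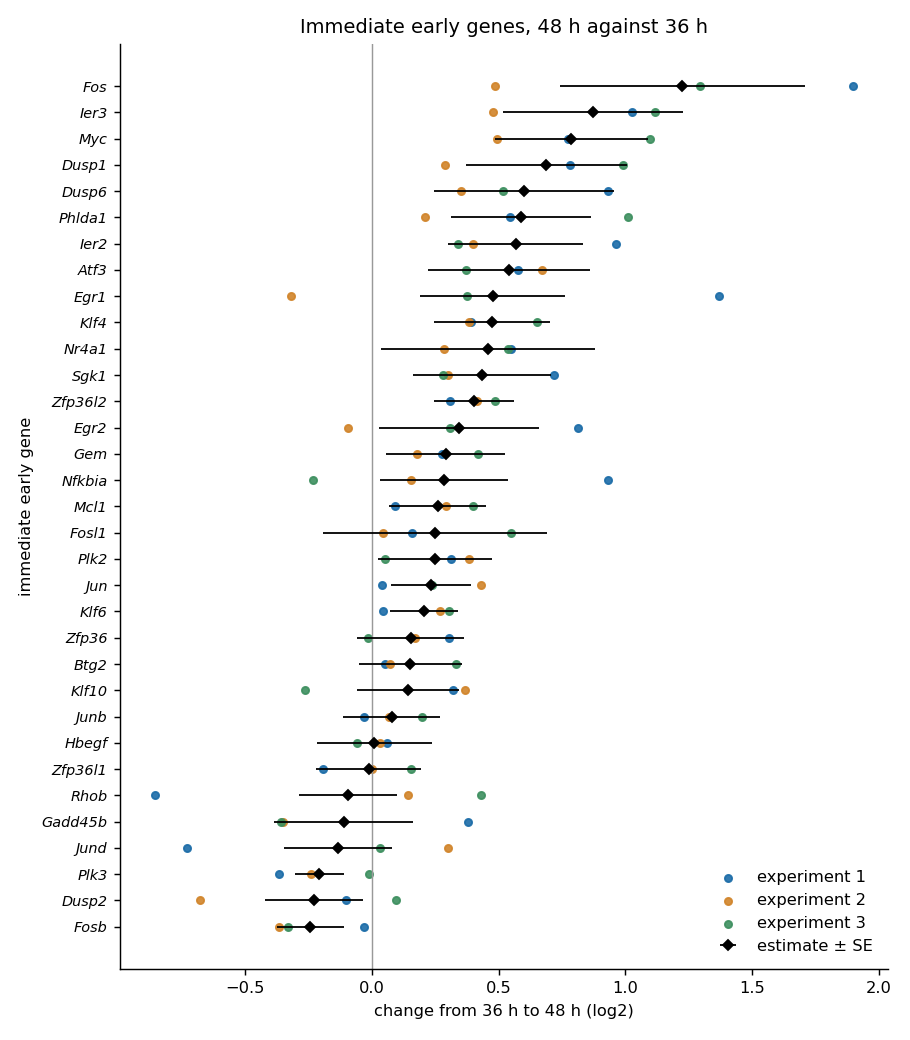
The 48 h minus 36 h difference (log2, x axis) of each of the 33 immediate early genes measured (y axis), with 1 coloured point per experiment and a black diamond with bars for the estimate ± SE. Estimates run from 1.22 for Fos to -0.24 for Fosb, and 26 of 33 lie to the right of 0.

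The 42 h arrays lie between the 2 times compared. All 7 members that were higher at an unadjusted p below 0.05 had a 42 h mean above their 36 h mean, and for 4 of them the 42 h mean was at or above the 48 h mean. The 42 h minus 36 h difference was 1.37 for Fos, 1.07 for Myc, 0.91 for Ier3, 0.70 for Ier2 and 0.68 for Dusp1, and from 42 h to 48 h these genes differed by -0.15, -0.28, -0.04, -0.14 and 0.01. Over the list the 42 h minus 36 h estimate was above 0 for 27 of 33 members (49.8% of all genes) with a median of 0.27, and the median step from 42 h to 48 h was 0.00. The experiments were uneven at 42 h. Relative to 36 h in the same experiment, the list median at 42 h was 0.60 in experiment 1, 0.14 in experiment 2 and 0.06 in experiment 3, where the 48 h values were 0.31, 0.27 and 0.33. The 42 h mean of the list thus came largely from experiment 1. Between 6 h and 30 h the mean of the 3 medians lay between -0.28 and -0.07 relative to 36 h, and at 0 h, right after the pulse, it was -0.17. Over the means from 6 h to 48 h, 12 of the 33 members were highest at 48 h (36.4%, against 14.2% of all genes), and 21 at 42 h or 48 h (25.4% of all genes). No probe set passed the adjusted threshold between 42 h and 36 h (422 at an unadjusted p below 0.05, 5.66%) or between 48 h and 42 h (236, 3.17%).

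**Figure D3:**
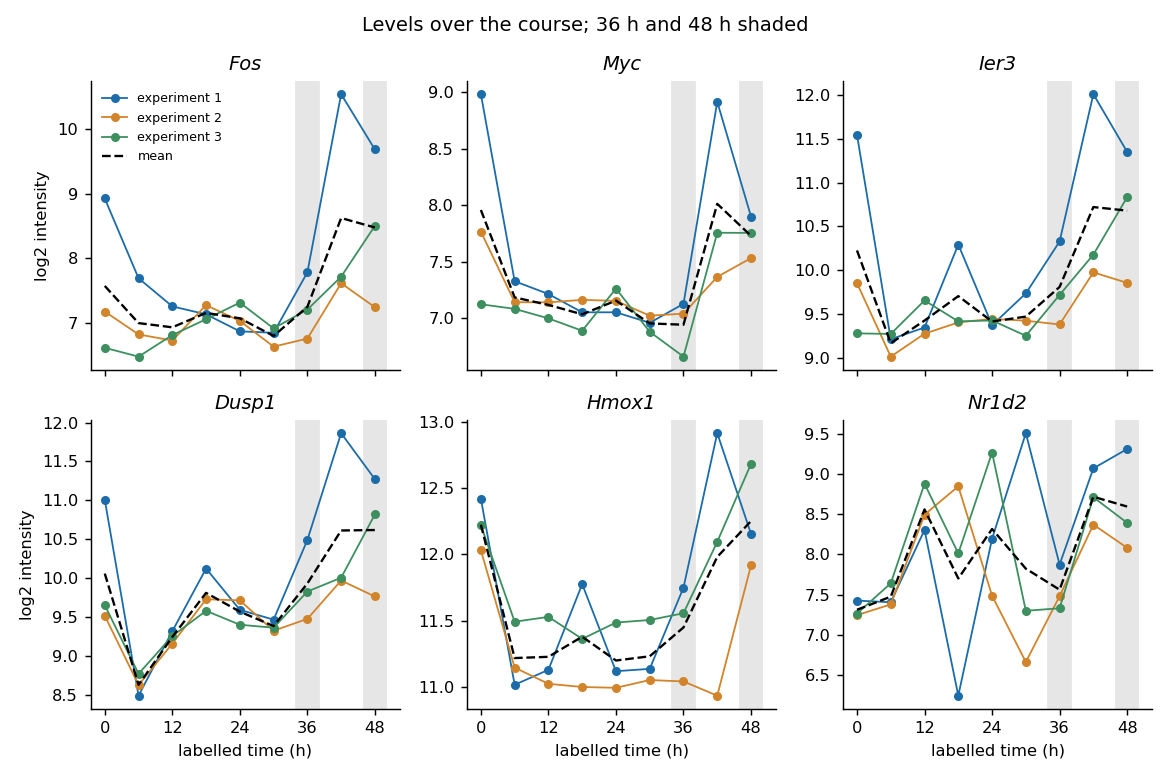
Levels (log2 intensity, y axis) of 6 genes at the 9 labelled times (x axis, hours), with 1 coloured line per experiment, the mean as a dashed line, and 36 h and 48 h shaded. In experiment 1 Fos, Ier3 and Dusp1 stand highest at 42 h and Myc at 0 h and 42 h, Hmox1 reaches its top at 42 h in experiment 1 and at 48 h in experiment 3, and the 3 lines of Nr1d2 run apart between 18 h and 30 h.

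The same clock interval 1 day earlier, from 12 h to 24 h, offers a comparison that shares no array with the late interval. The median difference of the immediate early list in that interval was -0.00, with 16 of 33 members above 0. Fos differed by 0.14 ± 0.48 from 12 h to 24 h, Myc by 0.04 ± 0.30, Ier3 by -0.01 ± 0.35 and Dusp1 by 0.33 ± 0.32. The late minus early difference was 1.09 for Fos, 0.75 for Myc and 0.88 for Ier3, and no member reached an unadjusted p below 0.05 in that test in either direction (3.26% of all genes were higher and 3.14% lower). Over all probe sets this test called 0 at an adjusted p below 0.05, with a smallest adjusted p of 0.689 and 448 (6.01%) at an unadjusted p below 0.05. From 12 h to 24 h itself limma called 2 probe sets of 7453 (0.0268%), both higher: Slc7a5, a leucine transporter, at 0.75 ± 0.12 (adjusted p = 0.0319) and Asb6, at 1.56 ± 0.28 (adjusted p = 0.0400). In the late interval Slc7a5 differed by 0.20 ± 0.12 and Asb6 by 0.60 ± 0.28, with no call for either. The 12 h arrays of experiments 1 and 3 carry differently worded source labels from the rest.

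The heat shock genes lay near 0. Of 35 cytosolic chaperones and heat shock genes measured, 20 had an estimate above 0 (57.1%, against 50.5% of all genes) and the median difference was 0.03 (0.09, 0.10 and -0.09 by experiment, SD 0.11, n = 3). None reached an unadjusted p below 0.05 in either direction, against 3.56% and 3.85% of all genes. Their estimates ran from -0.38 to 0.30. The smallest p belonged to Dnaja2, an HSP70 co-chaperone, which was at 9.07, 9.12 and 9.17 at 36 h and at 9.26, 9.54 and 9.47 at 48 h. Its groups did not overlap, and the difference was 0.30 ± 0.16 with an adjusted p of 0.710. From 12 h to 24 h it differed by 0.43 ± 0.16. The inducible genes that mark an HSF1 response, which were chosen after their values were seen, were near 0: Hspa1b (HSP70) differed by 0.11 ± 0.23, Hsph1 by 0.21 ± 0.23, Hsp90aa1 by 0.04 ± 0.23 and the co-chaperone Bag3 by 0.05 ± 0.19. The constitutive HSP70 gene Hspa8 differed by 0.10 ± 0.14, with 0.52 in experiment 1 and -0.11 in each of the other 2.

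**Figure D4:**
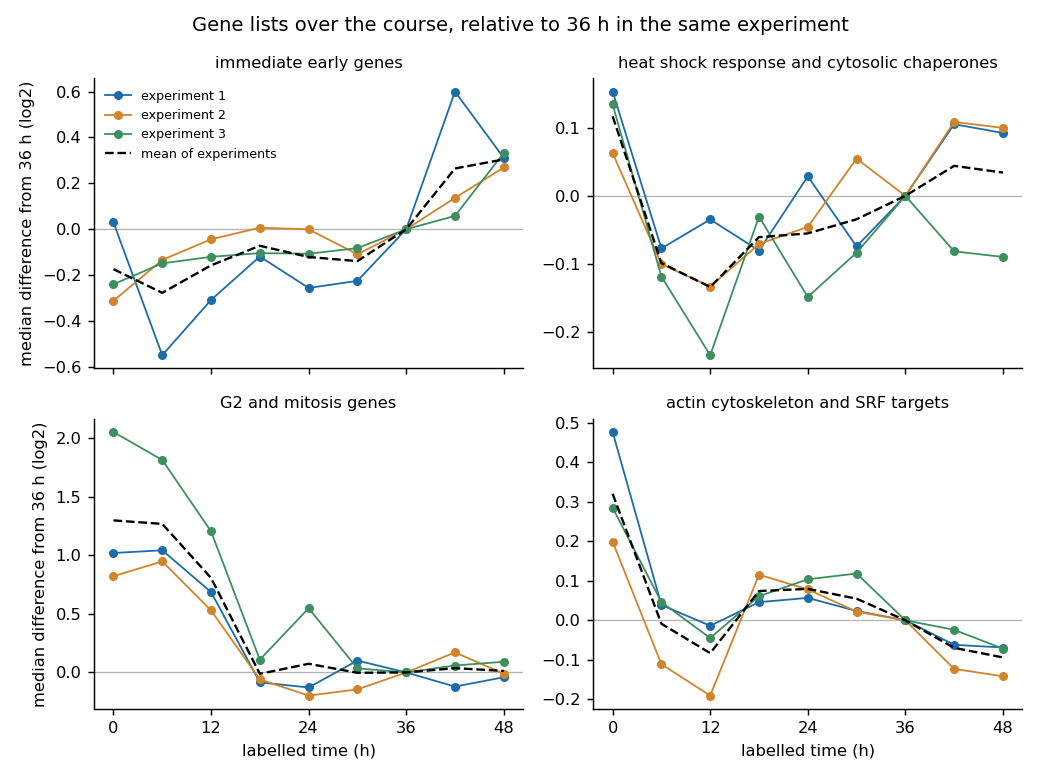
Median log2 difference of the members of 4 gene lists (33 immediate early, 35 heat shock, 36 G2 and mitosis, and 31 actin genes) from 36 h in the same experiment (y axis) at the 9 labelled times (x axis, hours), with coloured lines for experiments and a dashed line for their mean. The immediate early medians at 48 h are 0.31, 0.27 and 0.33, the heat shock medians 0.09, 0.10 and -0.09, and the G2 and mitosis medians lie between -0.20 and 0.17 from 18 h on, apart from experiment 3 at 24 h (0.55).

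The smallest p among the stress lists fell to a gene of the oxidative stress response. Hmox1, the heme oxygenase that NRF2 and other stress factors induce, was at 11.75, 11.04 and 11.56 at 36 h and at 12.15, 11.92 and 12.68 at 48 h. The lowest 48 h array was above the highest 36 h array. The difference was 0.80 ± 0.24, a 1.74-fold higher level (95% interval 1.23 to 2.48), and its adjusted p was 0.637. From 12 h to 24 h Hmox1 differed by -0.03 ± 0.24, and the late minus early difference of 0.83 had an adjusted p of 0.770. Txnrd1, a thioredoxin reductase and another NRF2 target, chosen after its values were seen, was at 9.45, 9.09 and 9.63 at 36 h and at 9.94, 9.89 and 9.98 at 48 h, again without overlap, a difference of 0.55 ± 0.17. Of all 23 genes measured of the NRF2 list, 14 were above 0 (60.9%, against 50.5%), with a median of 0.06, and Hmox1 and Txnrd1 were the 2 higher at an unadjusted p below 0.05 (8.70%, against 3.56%). Of the other 21, 12 were above 0 (57.1%), none was higher and 1 was lower at an unadjusted p below 0.05. The lower one, the pentose phosphate enzyme Tkt, differed by -0.44 ± 0.17. The glutathione genes Gclm and Gsr differed by 0.29 ± 0.18 and 0.11 ± 0.19, and Nqo1 by -0.82 ± 0.49, with a low 48 h array of 4.62 in experiment 1.

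For the endoplasmic reticulum, 5 of 19 measured members were higher at an unadjusted p below 0.05 (26.3%, against 3.56%), and 1 was lower (5.26%, against 3.85%). The median of the estimates was 0.01 with 10 of 19 above 0 (52.6%, against 50.5%). Within the experiments the list median was 0.13, 0.14 and 0.05 (SD 0.05, n = 3). The 5 were Dnajb9, Dnajb11, Atf6, Xbp1 and Hspa5, named after their values were seen. Dnajb9, a co-chaperone and target of the XBP1 arm, was at 8.57, 7.86 and 8.39 at 36 h and at 8.84, 8.58 and 9.07 at 48 h, without overlap. Its difference was 0.56 ± 0.19 (adjusted p = 0.637), and from 12 h to 24 h it differed by 0.60 ± 0.19. Its second probe set gave 0.38 ± 0.21, with -0.21 in experiment 2. Xbp1 itself differed by 0.23 ± 0.11 and Hspa5, the BiP chaperone, by 0.25 ± 0.12. The lower one, the disulfide isomerase P4hb, was at 10.38, 11.33 and 10.91 at 36 h and at 8.37, 10.92 and 10.99 at 48 h, and experiment 1 gave -2.01 of a difference that was -0.78 ± 0.32 in all. Herpud1 and Creld2, further targets of this response, differed by -0.04 ± 0.16 and -0.08 ± 0.17.

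Of 29 genes of the ATF4 and amino acid response, 19 were above 0 (65.5%, against 50.5% of all genes), 4 were higher (13.8%, against 3.56%) and 1 lower (3.45%, against 3.85%) at an unadjusted p below 0.05, and the median was 0.06. The 5 are mostly tRNA synthetases and go in opposite directions. Sars, the seryl-tRNA synthetase, was at 9.78, 9.49 and 9.85 at 36 h and at 9.11, 9.28 and 9.34 at 48 h, lower without overlap, with a difference of -0.46 ± 0.15 (adjusted p = 0.637). Cars, Nars and Eprs differed by 0.95 ± 0.39, 0.47 ± 0.18 and 0.36 ± 0.15, and the glutamine transporter Slc38a2 by 0.42 ± 0.19, all 4 named after their values were seen. Atf4 and its targets Asns and Ddit3 differed by 0.12 ± 0.11, -0.06 ± 0.11 and 0.05 ± 0.20. For low oxygen, 15 of 19 HIF targets were above 0 (78.9%, against 50.5%) with a median of 0.11, though the 12 h to 24 h median was 0.17. At an unadjusted p below 0.05, 2 of these targets were higher (10.5%, against 3.56% of all genes) and 0 lower (0%, against 3.85%). The smallest p of that list belonged to the hexokinase Hk1, at 13.85, 12.30 and 13.22 at 36 h and 14.01, 13.64 and 13.24 at 48 h. Its difference of 0.51 ± 0.18 lies almost wholly in experiment 2, where the 36 h array was low. Vegfa differed by -0.10 ± 0.38. Of 25 p53, FoxO and growth arrest genes, 20 were above 0 (80%, against 50.5%) with a median of 0.10, 1 was higher at an unadjusted p below 0.05 (4%, against 3.56%), Bcl6 at 0.30 ± 0.14, and none was separated between the groups.

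The core clock genes carried the highest list median, 0.29 over 13 measured members (0.33, 0.25 and 0.21 by experiment, SD 0.06, n = 3), with 10 above 0 (76.9%, against 50.5%) and 1 higher at an unadjusted p below 0.05 (7.69%, against 3.56%), Rora. For 4 members, 30.8% against 2.64% of all genes, every 48 h array was above every 36 h array: Nr1d2, Per3, Bhlhe40 and Clock. This median was 0.14 without experiment 3 and 0.01 among the members that passed a filter at the 60th percentile. Nr1d2, which encodes the repressor REV-ERBβ, was at 7.87, 7.48 and 7.33 at 36 h and at 9.31, 8.08 and 8.39 at 48 h, a difference of 1.04 ± 0.57 (adjusted p = 0.713). The experiments ran apart earlier in the course: from 12 h to 24 h it differed by -0.11, -1.01 and 0.39. At 18 h and 30 h Nr1d2 was at 6.24 and 9.51 in experiment 1. It was at 8.85 and 6.66 in experiment 2 and at 8.01 and 7.30 in experiment 3. From 18 h to 30 h Per3 also rose, and Arntl fell, in experiment 1 only. These arrays of experiment 1 stay in the fit and so in the errors. Without them the smallest adjusted p in limma was 0.394. The cause was not tested. Per3 was at 8.91, 9.02 and 9.24 at 36 h and at 9.87, 9.51 and 9.86 at 48 h, a difference of 0.69 ± 0.37, and differed by 0.68 ± 0.37 from 12 h to 24 h. Bhlhe40, a repressor that is also induced by serum and low oxygen, differed by 0.66 ± 0.46, Clock by 0.38 ± 0.19 and Rora by 0.33 ± 0.13. Arntl, which encodes BMAL1, differed by -0.28 ± 0.29 in the late and -0.30 ± 0.29 in the early interval. Cry1 differed by -0.00 ± 0.22 in the late and 0.95 in the early interval. Per1 differed by 0.33 ± 0.29, Nr1d1 by 0.19 ± 0.29, Cry2 by 0.03 ± 0.22, Csnk1d by -0.15 ± 0.08, Csnk1e by 0.29 ± 0.15 and Timeless by 0.01 ± 0.19. Dimmer Csnk1d probe sets gave -0.00 ± 0.11, 0.08 ± 0.19 and -0.34 ± 0.46.

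Actin and serum response factor targets leaned the other way from the immediate early genes. Of 31 measured, 24 had an estimate below 0 (77.4%, against 49.5% of all genes), 3 were lower and 0 higher at an unadjusted p below 0.05 (9.68% lower, against 3.85%), and 13 were lower in all 3 experiments (41.9%, against 15.0%). The median was small, -0.08 (-0.07, -0.14 and -0.07 by experiment). Actb, cytoplasmic β-actin, was at 12.12, 11.66 and 12.13 at 36 h and at 10.98, 11.43 and 11.87 at 48 h, a difference of -0.54 ± 0.19 (adjusted p = 0.637) of which experiment 1 gave -1.14. From 12 h to 24 h it differed by 0.58 ± 0.19, and the late minus early difference of -1.12 had an adjusted p of 0.750. Its second probe set gave -0.34 ± 0.17. The ratio of the 3′ to the 5′ actin control probe sets, a sign of RNA integrity, was 1.44, 1.11 and 1.73 at 36 h and 1.65, 1.29 and 1.50 at 48 h, and the Gapdh ratio was 0.782, 0.799 and 0.772 at 36 h and 0.916, 0.784 and 0.743 at 48 h. The value of 0.916, for experiment 1 at 48 h, is the highest of the 27 arrays, where the next is 0.826, and Actb, P4hb, Nqo1 and Zfp787 had their lowest level of the 6 arrays on that array. Fos, Myc, Ier3, Dusp1, Egr1 and Nr1d2 had their highest level of the 6 arrays on the same array. Without experiment 1 the difference was -0.24 ± 0.17 for Actb, -0.16 ± 0.16 for P4hb and -0.82 ± 0.32 for Zfp787. The median of the immediate early list was then 0.29. The part of RNA integrity in these values was not tested. The smooth muscle genes named after their values were seen were lower in every experiment: Tagln by -0.38, -0.56 and -0.43, Actg2 by -0.43, -0.53 and -0.23, and Acta2 by -0.44, -0.83 and -0.28. Only for Actg2 did the groups not overlap. Acta2 had differed by 0.90 ± 0.33 from 12 h to 24 h, and its late minus early difference was -1.42 (adjusted p = 0.750). Without experiment 1 that difference was -1.83 ± 0.24 with an adjusted p of 0.0223 in limma, the 1 probe set called in any alternative.

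Of the lists with at least 5 measured members, the G2 and mitosis genes had the widest gap between the late and the early median. The 36 G2 and mitosis genes measured had a median difference of 0.03 (-0.04, -0.01 and 0.09 by experiment), with 20 above 0 (55.6%, against 50.5%) and none at an unadjusted p below 0.05, while from 12 h to 24 h their median was -0.87 with 35 of 36 below 0 (48.6% of all genes). The late minus early difference was above 0 at an unadjusted p below 0.05 for 16 of 36 members (44.4%, against 3.26% of all genes), and none passed the adjusted threshold. Cdc20, which activates the anaphase-promoting complex and was chosen after its values were seen, was at 8.23, 10.01 and 8.06 at 36 h and at 8.29, 9.93 and 8.20 at 48 h. It differed by 0.04 ± 0.32 late and by -1.46 ± 0.32 early, a late minus early difference of 1.49 (adjusted p = 0.750). Hmgb2 had the smallest p of this list in the late interval, at 0.73 ± 0.39. Of 37 S phase genes 22 were above 0 (59.5%), with a median of 0.04.

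In metabolism, 12 of 17 cholesterol synthesis genes had an estimate below 0 (70.6%, against 49.5% of all genes) and 3 were lower at an unadjusted p below 0.05 (17.6%, against 3.85%), with a median of -0.10 (-0.05, -0.05 and -0.30 by experiment). Mvd, the mevalonate decarboxylase, differed by -0.57 ± 0.22, of which experiment 1 gave -1.13 and experiment 2 -0.02. Mvk and Fdft1 differed by -0.29 ± 0.13 and -0.41 ± 0.19 and were lower in each experiment. Among 21 NF-κB targets and cytokines, 13 were above 0 (61.9%, against 50.5%) with a median of 0.04. At an unadjusted p below 0.05, 2 of them were higher (9.52%, against 3.56%) and 1 lower (4.76%, against 3.85%). The neutrophil chemokine gene Cxcl1 was at 8.94, 8.53 and 8.46 at 36 h and 9.29, 8.91 and 9.83 at 48 h, a difference of 0.70 ± 0.31, and its second probe set gave 0.97 ± 0.44. From 12 h to 24 h Cxcl1 differed by -0.73 ± 0.31. Bid, the smallest p among apoptosis regulators, differed by 0.75 ± 0.27 without overlap of the groups. Cytosolic ribosomal proteins, oxidative phosphorylation subunits and extracellular matrix genes had medians of -0.04, -0.03 and -0.01. The members with the smallest p of further lists include the interferon-inducible Ifi202b at 0.66 ± 0.23, the β-oxidation enzyme Decr1 at 0.55 ± 0.22, the lipase Lpl at 0.51 ± 0.21, the proteasome subunit Psmd14 at 0.44 ± 0.14 and the matrix protein Matn2 at 0.35 ± 0.11. On the lower side stand the ribosomal protein Rps29 at -0.46 ± 0.20, the cytochrome oxidase subunit Cox6b1 at -0.43 ± 0.17, the autophagy gene Map1lc3a at -0.35 ± 0.12, the protease inhibitor Timp1 at -0.33 ± 0.11 and the polymerase subunit Pold1 at -0.31 ± 0.11. None of them passed the adjusted threshold.

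**Figure D5:**
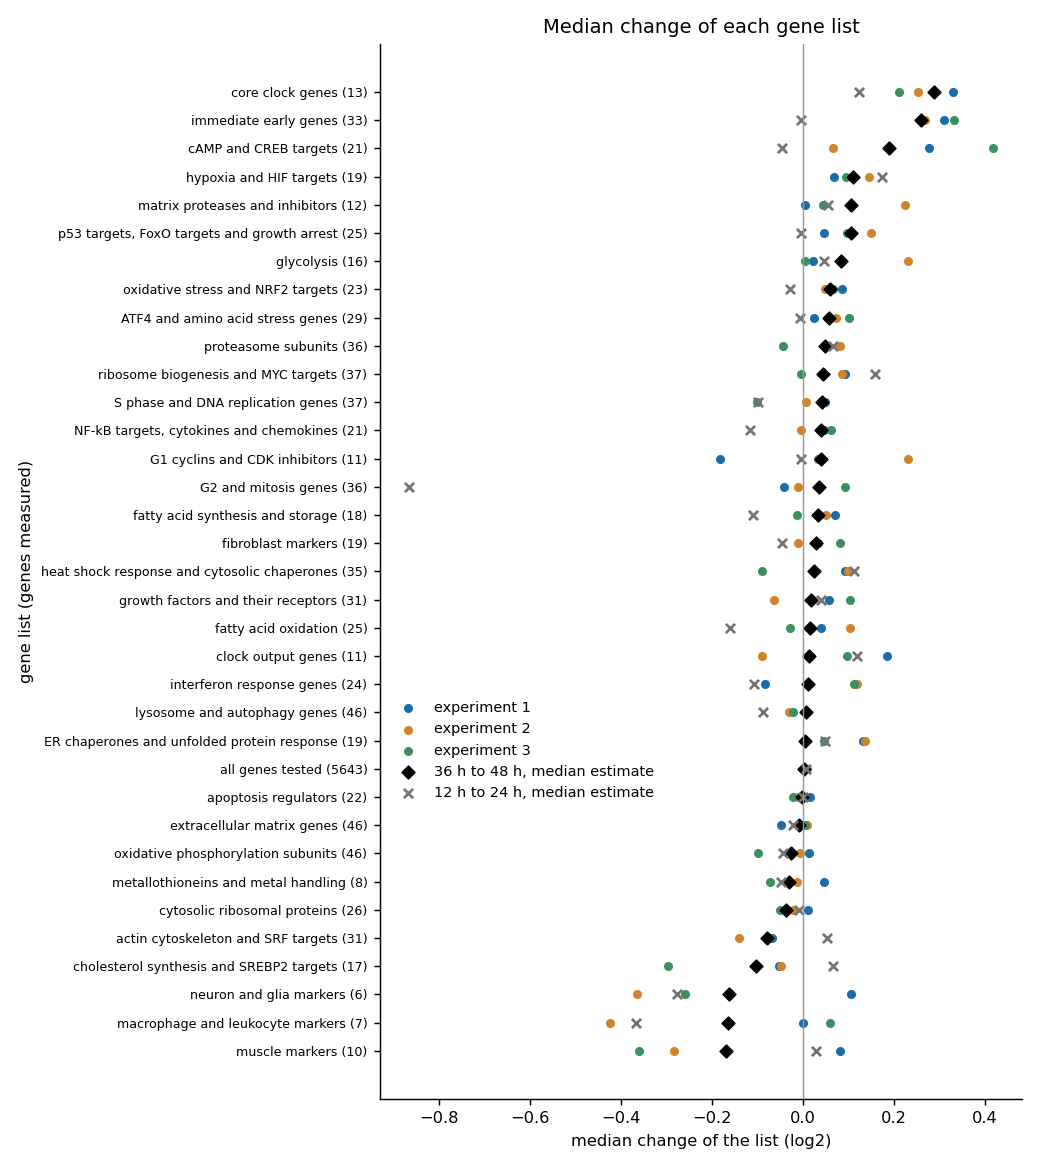
Median log2 difference (x axis) of each gene list with at least 5 measured members (y axis, number measured in brackets) for 36 h to 48 h (black diamonds, coloured points for the 3 experiments) and for 12 h to 24 h (grey crosses). Core clock (0.29) and immediate early genes (0.26) have the highest late medians, and G2 and mitosis genes differ most from their early median (0.03 against -0.87).

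The genes with the largest differences of one sign in all 3 experiments, described after their values were seen, were mostly dim. Scx, a transcription factor of tendon cells, was at 7.99, 8.57 and 5.97 at 36 h and at 8.97, 9.59 and 9.48 at 48 h, a difference of 1.84 ± 0.67 (adjusted p = 0.637). With the low 36 h array, experiment 3 gave 3.51, against 0.98 and 1.03 in the others. Zfp787, a zinc finger protein, was at 8.96, 8.72 and 8.64 at 36 h and at 5.69, 8.26 and 7.45 at 48 h, a difference of -1.64 ± 0.39 (adjusted p = 0.569). Abcc3, an organic anion transporter, was more even on these 6 arrays, at 7.78, 7.65 and 7.55 against 5.74, 6.28 and 6.16. Its difference was -1.60 ± 0.54, but its 48 h values lie below the mean level of 6.77 at which the filter stood. Earlier in the course its experiments ran apart, at 5.94, 8.19 and 8.26 at 6 h and at 5.84, 6.25 and 8.11 at 30 h. At 42 h they were close, at 6.48, 6.11 and 6.28. Nxf1, the mRNA export receptor, had a smaller difference with a p as small as that of Zfp787, at 9.48, 8.76 and 9.03 against 10.03, 9.19 and 9.57. It was higher by 0.55, 0.43 and 0.54 in the 3 experiments (0.51 ± 0.12, adjusted p = 0.569) and differed by 0.42 ± 0.12 from 12 h to 24 h.

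The medians of the deposited intensities were 199.4, 181.2 and 174.7 at 36 h and 189.4, 171.8 and 172.2 at 48 h. Of 20 fibroblast markers 19 passed the filter, with summed intensities between 192876 and 229218 at 36 h and between 197215 and 206847 at 48 h. Of 21 muscle markers on the array 10 passed, with sums of 2423 to 2686 at 36 h and 1937 to 2206 at 48 h, which do not overlap. By experiment their median difference was 0.08, -0.28 and -0.36 (SD 0.24, n = 3), so experiment 1 did not share the lower value. These markers are dim, with a median level of 7.75 at 36 h and 7.44 at 48 h. None reached an unadjusted p below 0.05 in limma, and 2 were lower in all 3 experiments (20%, against 15.0% of all genes). Any link to the lower smooth muscle genes was not tested. Leukocyte markers passed for 7 of 21 (2020 to 2519 against 1588 to 2377), neuron and glia markers for 6 of 15, adipocyte markers for 3 of 8, and endothelial and epithelial markers for 2 of 11 and 2 of 13. All cultures are of a fibroblast line, so these values do not show that cells of other types were present. Detection calls were not used, so the signal of these markers over background is unknown. In RNA of whole cultures, fewer cells with a transcript and less of it per cell cannot be told apart.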

How the data were processed

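The authors deposited linear intensity values per probe set for 27 Affymetrix mouse U74v2 arrays, per the labels; the sources used here do not name the algorithm behind them. The mean without the outer 2% at each end was 500.28 to 500.35 on each array, so values were scaled before deposit. Of 12488 probe sets, 66 controls were left out. A pseudocount of 12.1, the 10th percentile of all values, was added before log2, followed by quantile normalization. Probe sets under the 40th percentile of mean level (6.77) were dropped, leaving 7453 probe sets and 5643 genes, each gene by its brightest probe set. Gene names came from the platform annotation (10855 probe sets with 1 symbol, 396 with several, 1193 unlisted).

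limma 3.58.1 in R 4.3.3 fitted time and experiment on all 27 arrays, with an intensity trend and Benjamini-Hochberg adjustment over all probe sets, two-sided. The method was tested on simulated data, and the outcome of that test is not reported here. The experiment numbers pair the samples: deviations of the 36 h and 48 h arrays from their time means correlated at 0.616, 0.599 and 0.363, and all pairs of times within an experiment at 0.135 or above. The members and the 37 gene lists were chosen with earlier results of these data known. The naming rule was every measured immediate early and core clock gene, any gene that passed the test (none did), and the member with the smallest p of each other list, of which not all are printed; others were chosen after their values were seen. Detection calls were not used, so signal over background is unknown, and precision is limited by the 3 arrays per time point.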

Additional observations from a re-analysis of the deposited data

How the results depend on the processing

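Counts of probe sets called from 36 h to 48 h were 0 in each direction in limma under all 16 alternatives. At an unadjusted p below 0.05 there were 147 to 789 probe sets, or 1.97% to 8.69% of those tested. The count of 789 came from the fit without a filter, where it was 6.35% of 12422 probe sets. Leaving out each experiment in turn, the late minus early test called 0 to 1 probe set. Without the replicate block, the pairing by experiment, 147 probe sets (1.97%) were at an unadjusted p below 0.05 against 534 with it, and no call changed. Centring arrays on their medians, which moves the median of all probe sets from 0.002 to 0.044, gave 424 higher and 173 lower (71% higher, against 47.8%).

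Values of single genes near 0 turned sign. Leaving out 1 experiment at a time, the 48 h minus 36 h difference ran for Hbegf from -0.0155 to 0.0438, Jund from -0.3507 to 0.1643, Nfkbia from -0.0390 to 0.5433, Rhob from -0.3574 to 0.2861, Zfp36l1 from -0.0964 to 0.0771, Cry1 from -0.1273 to 0.1068, Hspa8 from -0.1077 to 0.2058, Stmn2 from -0.5522 to 0.0183, Gadd45b from -0.3558 to 0.0120, Cry2 from -0.1497 to 0.2247, Hsp90aa1 from -0.0262 to 0.1242, Timeless from -0.0534 to 0.0549 and Bag3 from -0.0639 to 0.1432. With array weights Rhob was 0.0884, Zfp36l1 0.0219, Cry1 0.0898, Timeless -0.0040 and Hspa8 -0.0063. With values as deposited Hbegf was -0.0367, Cry1 0.0050 and Cry2 -0.0066. With median centring Zfp36l1 was 0.0498 and Cry1 0.0582, and with a pseudocount of 50 Cry1 was 0.0017. The cause was not tested.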
